A study of Homo sapiens with 26 samples.

Results

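The genes described here encode the core of the Mediator complex and the general transcription factors of RNA polymerase II, 47 genes of the 58039 in the deposited table. Members were chosen by gene symbol, with earlier results of these data known. They are 26 core Mediator subunits and 21 subunits of TFIIA, TFIIB, TFIID, TFIIE, TFIIF and TFIIH. All 47 had enough counts to be tested. The 26 RNA-seq libraries come from HCT116 cells, a line grown from a human colon carcinoma, and fall into 9 groups. Knockouts were made by CRISPR and come as 2 sublines each, named C1 and C2. The groups were CDK8KO-C1, CDK8KO-C2, CDK19KO-C1, CDK19KO-C2, DKO-C1 and DKO-C2 with 3 libraries each, DKO-C1 given JQ1 with 2, control cells given JQ1 with 3, and control cells with 3. DKO cells are labelled as knockouts of both CDK8 and CDK19, and the other knockouts of the gene in their name. JQ1 is a small-molecule bromodomain inhibitor. Dose and time of JQ1 are not stated in the labels. The 3 columns of DKO-C2 carry another subline number and were assigned to it as the sole DKO group left without columns. Whether a subline is a clone, and whether libraries of a subline are separate cultures, is not given either. All p-values therefore measure the spread between libraries of the same subline, and each knockout rests on 2 sublines.

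Mediator carries signals from DNA-bound activators to RNA polymerase II. Its tail faces activators, its head and middle touch the polymerase, and MED14 is the backbone that holds these parts together. CDK8 or its paralog CDK19, with cyclin C, MED12 and MED13, forms a kinase module that binds the core reversibly and is not part of it. At the promoter, TFIID and TFIIA mark the start site, TFIIB and TFIIF bring the polymerase, and TFIIE and TFIIH complete the complex. TFIIH opens the DNA, and its CDK7 kinase phosphorylates the polymerase tail.

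Libraries held 17700864 to 19093094 gene counts, of which the 47 members took 0.216% to 0.241%. The epithelial markers EPCAM, CDH1, KRT8, KRT18, KRT19 and CDX2 were counted in all 26 libraries, while the intestinal markers VIL1 and CDX1 stayed at or under 0.261 CPM (counts adjusted for library size). Leukocyte and endothelial marker lists summed to at most 0.884 and 0.986 CPM, and the fibroblast list to 13.7 to 31.5 CPM, nearly all of it COL1A1, with LUM at 0 in all 26 libraries. RNA of the targeted genes does not check the labels. CDK8 fell in CDK8KO (log2 fold change -0.17 ± 0.0473, adjusted p = 0.00441) and in DKO (-0.41 ± 0.0477, adjusted p = 2.07e-09), but CDK19 fell in CDK19KO (-0.32 ± 0.0658, adjusted p = 0.000163) and rose in DKO (0.39 ± 0.0631, adjusted p = 1.32e-06). The labels do not state the edited sites, so the group names below are those of the labels. Changes are relative to the median gene. With factors from the ERCC spike-in instead, all genes had a median log2 change of -1.23 in CDK8KO, -1.67 in CDK19KO, -0.92 in DKO, -0.39 for JQ1 in control cells and -0.27 for JQ1 in DKO-C1. The labels name that spike-in for control and DKO samples and not for single knockouts, so a batch cannot be told apart from the contrast of single knockouts with control. All 26 libraries held ERCC counts: 423954 to 807887 in single knockouts, 332220 to 454662 in DKO without JQ1 and 193685 to 233534 in control. In bulk RNA, a lower level in all cells and fewer cells with the RNA cannot be told apart.

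The 8 libraries labelled DKO, with or without JQ1, stood apart from the other 18 in a way that touches some members. Processed pseudogenes, intronless copies of spliced RNAs, took 0.182% to 0.208% of gene counts in the 8 DKO libraries and 2.24% to 2.76% in the other 18. Of 1346 processed pseudogenes tested, 1172 were lower in DKO than in control, with a median log2 fold change of -3.90. No such shift was seen for JQ1 in DKO-C1 (median 0) or for the single knockouts (median -0.11 in CDK8KO and -0.07 in CDK19KO). The split coincides with the DKO label in every library, so it cannot be told apart from the knockout in any comparison of DKO with other groups. Comparisons within DKO-C1 do not cross it.

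MED27, a subunit placed between head and tail, has a partner that follows this split. Its coding sequence of 936 bases has a processed copy on chromosome 5, AC026410.3, of the same length and 98.7% identical (924 of 936 bases). AC026410.3 is its name in the deposited counts, and GENCODE v29 names it CRSP8P. The stretch below crosses an exon junction of MED27, on chromosome 9, from coding base 164 to 243, and is the same in the copy at chr5:80351714-80351793 (build GRCh38, minus strand), where no intron lies. Capitals mark the 2 bases on either side of the junction. A read of this stretch cannot be assigned to either gene by its letters.
MED27: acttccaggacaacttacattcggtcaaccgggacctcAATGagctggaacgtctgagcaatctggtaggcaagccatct
AC026410.3: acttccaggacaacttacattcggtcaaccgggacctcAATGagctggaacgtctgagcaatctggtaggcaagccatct
Of the 887 runs of 50 bases in the MED27 coding sequence, 482 occur in the copy. Such runs are shorter than the reads. AC026410.3 had 1 to 7 counts in the 8 DKO libraries and 171 to 294 counts in the other 18.

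Other members have partners as well. By the GENCODE v29 annotation, 18 of the 47 overlap exons of another gene, or share 50-base runs with other transcripts, over at least 5% of their own exon length or runs: MED6, MED8, MED11, MED17, MED22, MED27, MED28, MED4, MED9, MED26, MED31, MED25, TAF1, GTF2E1, GTF2H2, GTF2H4, ERCC2 and CCNH. GTF2H4 shares 79.0% of its exon length with VARS2 on the same strand and had only 7 to 29 counts per library. GTF2H2 shares 65.4% of its runs, mainly with the near-identical GTF2H2B and GTF2H2C, and values for these genes are uncertain. MED31 overlaps TXNDC17 over 58.3% and MED25 overlaps PTOV1-AS1 over 18.7% of their exons, both on the opposite strand. The labels do not say whether counting used the strand, so such pairs cannot be separated. PTOV1-AS1 followed the split, with 14 to 25 counts in DKO libraries and 315 to 419 in the others, whereas KLC3, which overlaps ERCC2 over 8.29%, had 140 to 248 counts in DKO libraries and 119 to 251 in the others. Below the 5% mark, POLR2F, a polymerase subunit outside the 47, overlaps by 1.36% on the opposite strand and had 50.3 ± 3.65 CPM in DKO-C1 and 0.392 ± 0.123 CPM in control (SD, n = 3 each). The part of overlap in this difference was not tested.

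In control cells the members spanned a wide range of levels per length, shown here as CPM per kilobase of the principal transcript. GTF2F1, the large TFIIF subunit, stood highest at 53.9, followed by the tail subunit MED24 at 45.5 and the TFIIE subunit GTF2E2 at 38.4. GTF2H4 was lowest at 0.370, below MED17, a scaffold of the head, at 1.64. GTF2H5, the smallest TFIIH subunit, had 2.38 and MED26, which links Mediator to elongation factors, 3.15. GTF2H4, MED17 and MED26 overlap other genes on their own strand over 79.0%, 13% and 41.9% of their exons. The part of this overlap in their low values was not tested. Within the head the range ran from MED17 to MED6 at 17.4, within the middle from MED26 to MED1 at 25.2, and within the tail from MED23 at 8.04 to MED24, so subunits of the same complex differed widely in RNA level. The length used matters for genes with long merged exons: per kilobase of merged exons, CCNH had 6.04 in place of 26.6 and MED25 had 7.54 in place of 24.8, while GTF2F1 stayed first and GTF2H4 last.

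**Figure D1:**
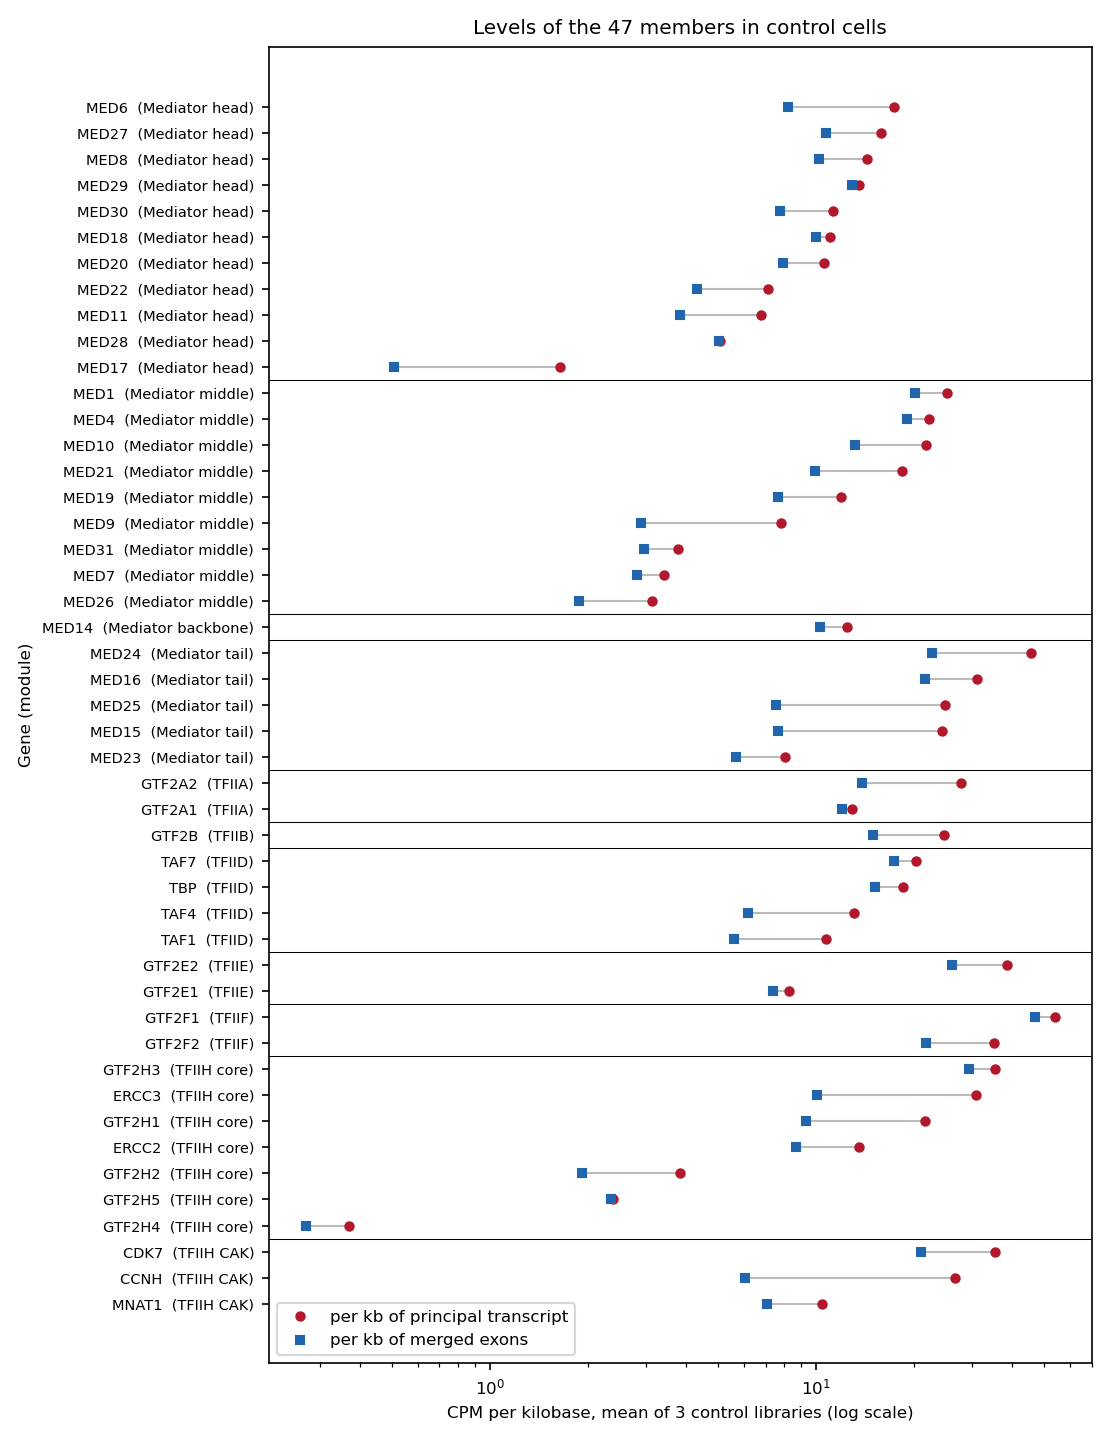
Level of each of the 47 genes in control cells, as CPM per kilobase (log axis, mean of 3 libraries), by module. Circles use the principal transcript and squares all merged exons. GTF2F1 is highest and GTF2H4, which shares 79.0% of its exon length with VARS2, lowest by either length.

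Changes of the members were frequent but small. The test called 21 of 47 members in CDK8KO, against 40.5% of all 17198 genes tested, 23 in CDK19KO against 43.0%, and 29 in DKO against 61.6%, each compared with control at an adjusted p under 0.05. For JQ1 it called 24 members in DKO-C1, against 50.3% of genes, and 25 in control cells, against 56.0%. These shares, 44.7%, 48.9%, 61.7%, 51.1% and 53.2% of members in that order, lie near those of all genes. They lie below those of genes with at least 5 CPM on average. Of such genes, 51.3% were called in CDK8KO, 53.4% in CDK19KO and 69.3% in DKO. For JQ1 the shares were 61.6% in DKO-C1 and 67.2% in control cells. Beside all genes the changes were smaller: the median absolute log2 fold change was 0.17 for members and 0.32 for all genes in DKO, 0.13 and 0.19 in CDK8KO, 0.15 and 0.20 in CDK19KO, 0.19 and 0.33 for JQ1 in DKO-C1, and 0.19 and 0.32 for JQ1 in control. Among the 11123 genes with at least 5 CPM on average, that median was 0.25 in DKO, 0.15 in CDK8KO, 0.16 in CDK19KO, 0.27 for JQ1 in DKO-C1 and 0.26 for JQ1 in control, so in the single knockouts the members were close to other expressed genes. A call together with a change of at least 1.5-fold was met by 3 members in DKO (ERCC2, MED27 and GTF2H2), 1 in CDK8KO (GTF2H4), 0 in CDK19KO, 3 for JQ1 in DKO-C1 and 2 for JQ1 in control, against 26.9%, 8.66%, 9.57%, 21.4% and 23.1% of all genes. Each gene named here is among the 18 members with overlap or shared sequence. Log2 fold changes of the other 29 members ran from -0.47 to 0.44 in DKO and from -0.3 to 0.23 in CDK8KO.

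**Figure D2:**
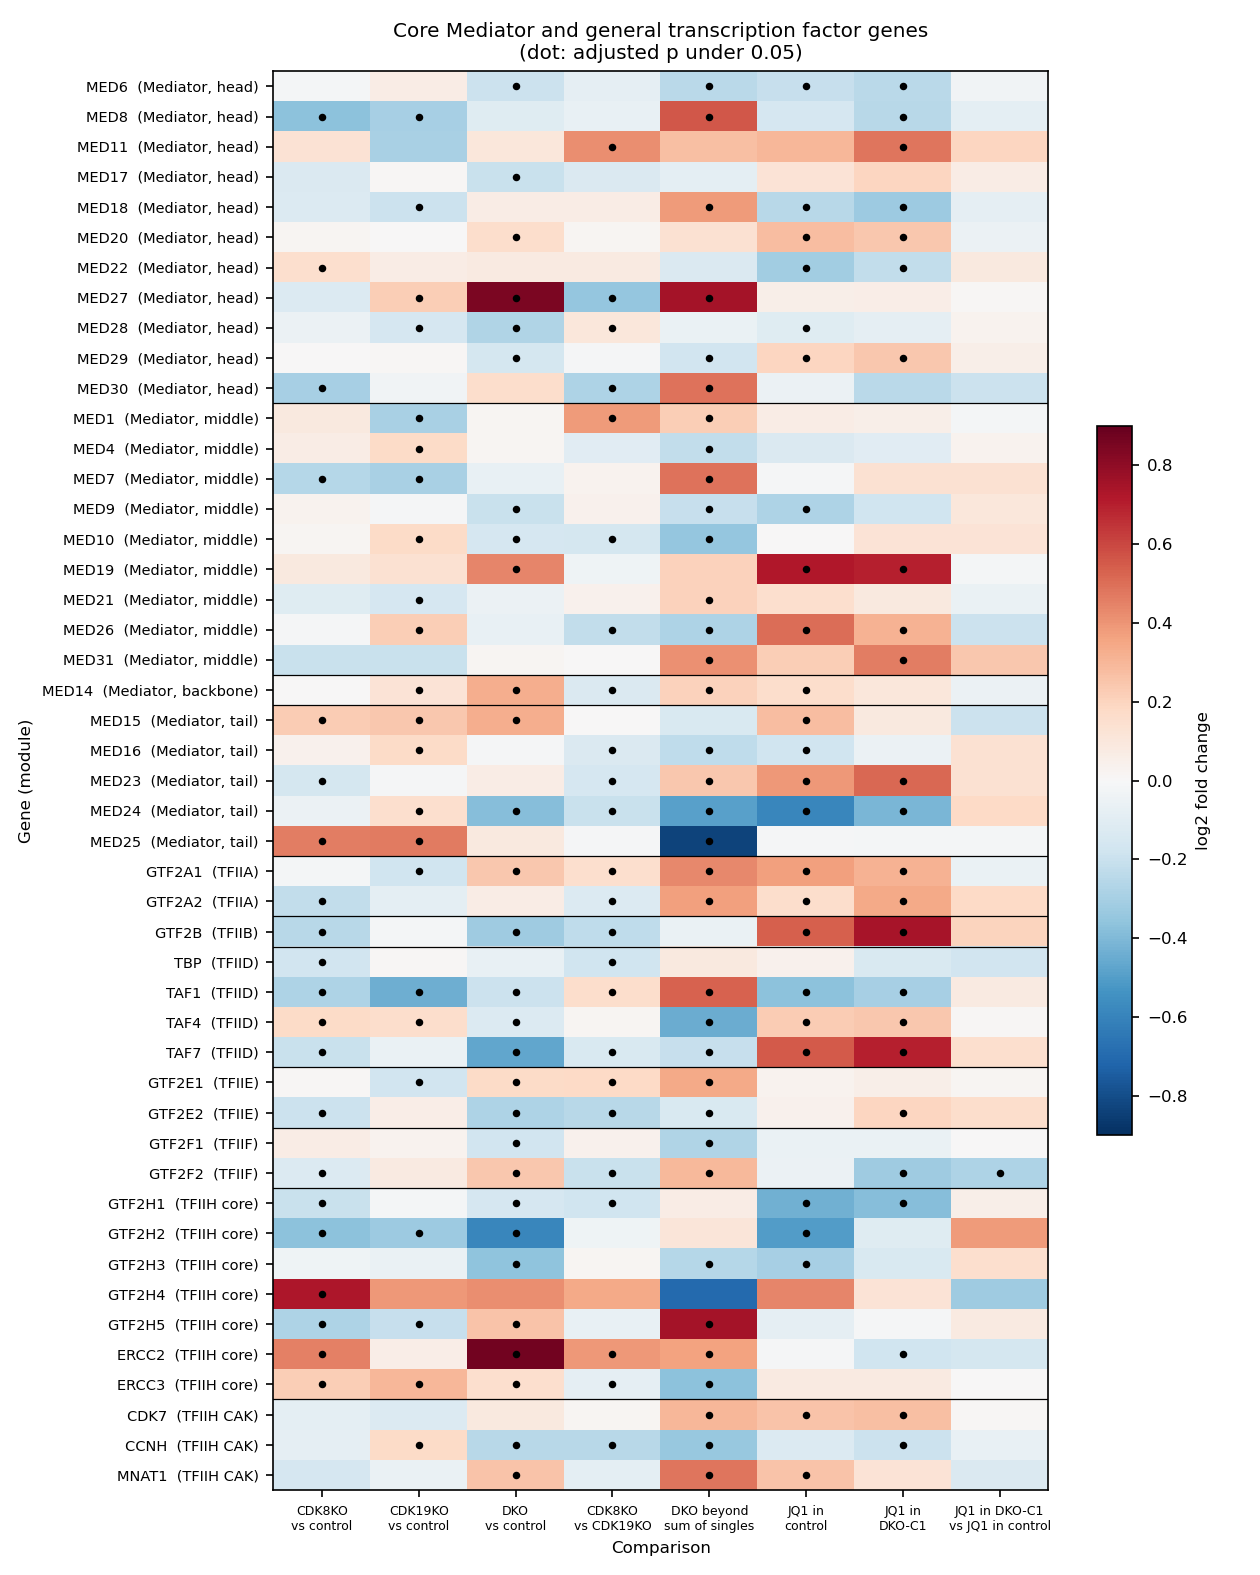
Log2 fold change of each of the 47 genes (rows, by module) in 8 comparisons (columns), coloured from -0.9 to 0.9, relative to the median gene. Dots mark an adjusted p under 0.05; the dark cells for DKO against control are MED27 (0.85) and ERCC2 (0.87), and only GTF2F2 has a dot in the last column.

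CDK8KO was compared with control first. Here and below, most members were named for the size of their change, so groups that do not overlap add no separate support. The share of all genes whose groups do not overlap was not computed. Of the 21 members called, 14 were lower and 7 higher, and the lower calls sat mostly in the TFII factors: 10 of 21 TFII genes fell and 4 rose, against 4 and 3 of 26 core Mediator genes (all genes: 21.0% lower, 19.5% higher). With ERCC factors, 46 members were called and all were lower. ERCC2, the XPD helicase of TFIIH, had 78.7, 74.5 and 72.5 CPM in CDK8KO-C1 and 81.6, 73.4 and 77.0 CPM in CDK8KO-C2, against 53.7, 54.8 and 59.0 CPM in control. All 6 knockout libraries lay above the 3 control libraries, a log2 fold change of 0.45 ± 0.0573 (adjusted p = 5.4e-08). MED25, an activator-binding tail subunit, had 73.8, 79.0 and 78.7 CPM in CDK8KO-C1 and 85.3, 79.4 and 81.4 CPM in CDK8KO-C2, against 59.7, 57.8 and 56.3 CPM in control (0.46 ± 0.0614, adjusted p = 1.53e-07). Those groups did not overlap either. ERCC3, the XPB translocase of TFIIH, had 100, 95.1 and 93.2 CPM in CDK8KO-C1 and 103, 100 and 103 CPM in CDK8KO-C2, against 82.6, 85.8 and 86.6 CPM in control (0.22 ± 0.0401, adjusted p = 2.88e-05). It too was higher in every knockout library. MED15, a tail subunit bound by lipid-gene activators, had 103, 101 and 102 CPM in CDK8KO-C1 and 89.7, 82.5 and 82.9 CPM in CDK8KO-C2, against 74.6, 83.5 and 80.1 CPM in control (0.23 ± 0.0611, adjusted p = 0.00234). Here C2 overlapped control, and the rise was not called in C2 alone (0.10).

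Among the genes that fell in CDK8KO, the head subunit MED8 had 23.5, 22.6 and 23.0 CPM in CDK8KO-C1 and 20.7, 18.4 and 19.7 CPM in CDK8KO-C2, against 25.8, 29.3 and 27.5 CPM in control (-0.37 ± 0.0618, adjusted p = 6.66e-06). Every knockout library was below every control library. GTF2H2 of the TFIIH core had 14.5, 13.6 and 12.5 CPM in C1 and 12.0, 12.1 and 12.2 CPM in C2, against 15.7, 16.9 and 17.1 CPM in control (-0.37 ± 0.0703, adjusted p = 5.59e-05). TAF1, the largest TFIID subunit, had 49.5, 44.1 and 48.9 CPM in C1 and 50.4, 51.7 and 55.8 CPM in C2, against 61.4, 62.0 and 59.4 CPM in control (-0.28 ± 0.0509, adjusted p = 2.12e-05). These groups stood clear of control as well. GTF2H5 had 14.0, 15.7 and 15.3 CPM in C1 and 12.4, 15.0 and 15.7 CPM in C2, against 16.8, 17.8 and 18.8 CPM in control (-0.28 ± 0.0709, adjusted p = 0.00161). MED30, a metazoan-specific subunit, had 9.15, 8.53 and 7.44 CPM in C1 and 10.3, 8.88 and 10.0 CPM in C2, against 11.5, 11.7 and 10.3 CPM in control (-0.30 ± 0.0858, adjusted p = 0.00424). It was not called in C2 alone (-0.20). TBP, which binds the TATA box, fell by 0.17 (adjusted p = 0.00601), a call that was lost without control replicate 1 (adjusted p = 0.0571) and in C2 alone (-0.11, adjusted p = 0.129). GTF2H4 was called higher (0.73 ± 0.289, adjusted p = 0.042) on 7 to 29 counts, with 0.986 to 1.26 CPM in CDK8KO and 0.374 to 0.838 CPM in control. That call was lost without control replicate 3 (0.46, adjusted p = 0.275) and with DESeq2 (adjusted p = 0.11). It was also lost without control replicate 2, CDK8KO-C1 replicate 1, or CDK8KO-C2 replicate 1 or 3 (adjusted p from 0.0546 to 0.0794). Neither subline alone was called (adjusted p = 0.0586 in C1 and 0.112 in C2).

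CDK19KO against control called 12 members higher and 11 lower. Core Mediator genes were called in both directions, 9 higher and 6 lower of 26, against 3 higher and 5 lower of 21 TFII genes (all genes: 21.0% higher, 22.0% lower). With ERCC factors all 47 were called lower. Of the 5 tail genes, 4 rose and 0 fell, but in C2 alone 2 rose. MED25 had 87.4, 93.9 and 97.0 CPM in CDK19KO-C1 and 75.0, 69.5 and 63.8 CPM in CDK19KO-C2, against 59.7, 57.8 and 56.3 CPM in control (0.47 ± 0.0615, adjusted p = 9.13e-08). The same control libraries serve the CDK8KO comparison, where MED25 rose by 0.46. MED15 had 97.6, 87.8 and 95 CPM in CDK19KO-C1 and 99.4, 95.2 and 86.2 CPM in CDK19KO-C2, against 74.6, 83.5 and 80.1 CPM in control, without overlap (0.24 ± 0.0611, adjusted p = 0.00186). Smaller rises were called for MED16 (0.17) and MED24 (0.15). MED24, which pairs with MED23 in the tail, had 186 to 192 CPM in CDK19KO-C1 and 158 to 167 CPM in CDK19KO-C2, against 154 to 163 CPM in control, and was not called in C2 alone (0.04), nor was MED16 (0.03, adjusted p = 0.768). ERCC3 had 101, 104 and 96.8 CPM in CDK19KO-C1 and 105, 111 and 110 CPM in CDK19KO-C2, against 82.6, 85.8 and 86.6 CPM in control (0.30 ± 0.0401, adjusted p = 1.42e-07).

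TAF1 had 45.2, 40.8 and 40.2 CPM in CDK19KO-C1 and 50.2, 43.7 and 49.8 CPM in CDK19KO-C2, against 61.4, 62.0 and 59.4 CPM in control. This was the largest fall among members in CDK19KO (-0.44 ± 0.0511, adjusted p = 7.4e-09), with no overlap between groups. MED1, the subunit that nuclear receptors bind, had 110, 110 and 99.1 CPM in CDK19KO-C1 and 128, 139 and 141 CPM in CDK19KO-C2, against 148, 150 and 144 CPM in control (-0.29 ± 0.0498, adjusted p = 9.98e-06). The fall lay mainly in C1 (-0.47) and was not called in C2 alone (-0.12). GTF2H2 had 12.5, 12.1 and 13.6 CPM in C1 and 14.7, 13.2 and 12.9 CPM in C2, against 15.7, 16.9 and 17.1 CPM in control (-0.33 ± 0.0702, adjusted p = 0.000247). MED8 had 21.5, 23.0 and 25.1 CPM in C1 and 19.1, 23.2 and 22.4 CPM in C2, against 25.8, 29.3 and 27.5 CPM in control (-0.30 ± 0.0616, adjusted p = 0.000154). Both genes were below control in every knockout library. MED7, a middle subunit, had 6.08, 8.02 and 8.01 CPM in C1 and 5.81, 6.84 and 5.66 CPM in C2, against 8.96, 8.05 and 7.64 CPM in control (-0.29 ± 0.0969, adjusted p = 0.0131), groups that overlapped. Smaller rises rested on single libraries. MED27 (0.22 ± 0.0721) lost its call without control replicate 1 or 2, with adjusted p of 0.059 and 0.073. MED26, with 10.8 to 12.5 CPM in CDK19KO and 9.80 to 10.4 CPM in control (0.22 ± 0.0803), lost it without control replicate 1 or 3, CDK19KO-C1 replicate 3 or CDK19KO-C2 replicate 1, with adjusted p from 0.0534 to 0.0906. Without control replicate 1, 13 members were called in place of 23, 5 higher and 8 lower, and MED7, MED24 and MED16 were among those lost.

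Sublines of the same knockout were also compared with each other. CDK19KO-C2 against CDK19KO-C1 called 18 of 47 members (all genes: 48.0%), CDK8KO-C2 against CDK8KO-C1 called 8 (21.1%), and DKO-C2 against DKO-C1 called 2 (9.42%). Against control, the sublines gave 20 calls in CDK19KO-C1 (46.1%), 18 in CDK19KO-C2 (42.4%), 19 in CDK8KO-C1 (39.2%), 15 in CDK8KO-C2 (34.0%), 25 in DKO-C1 (55.9%) and 29 in DKO-C2 (58.9%). MED20, MED9 and GTF2E2 were called higher than control in CDK19KO-C1 and lower in CDK19KO-C2, so their mean over sublines hid 2 opposite calls. MED9 of the middle had 19.3, 19.7 and 20.7 CPM in C1 and 15.5, 14.2 and 15.1 CPM in C2, against 17.2, 17.5 and 17.4 CPM in control. GTF2E2, the small TFIIE subunit, had 82.0, 83.2 and 78.6 CPM in C1 and 59.1, 61.5 and 62.0 CPM in C2, against 66.7, 68.5 and 67.9 CPM in control. MED20 of the head had 29.3 to 29.8 CPM in C1 and 21.6 to 23.9 CPM in C2, against 23.4 to 28.7 CPM in control. GTF2A1, which encodes the large TFIIA precursor, fell by 0.44 in C1 and stood at 0.09, not called, in C2. The 2 members called between the DKO sublines were MED25 (0.23) and TAF1 (-0.22).

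CDK8KO set against CDK19KO, which does not cross the spike-in label, called 24 of 47 members, 7 higher and 17 lower in CDK8KO (all genes: 23.6% higher, 23.4% lower). With ERCC factors 41 members were called, all of them higher. ERCC2 was higher in CDK8KO by 0.39 ± 0.0461 (adjusted p = 6.32e-09), with CDK19KO at 55.4 to 60.7 CPM, near the control level. MED1 was higher by 0.38 ± 0.0411 (adjusted p = 7.03e-10). MED11, a small head subunit, was higher by 0.42 ± 0.103 (adjusted p = 0.000879), with 5.58 to 7.53 CPM in CDK8KO and 2.86 to 5.73 CPM in CDK19KO, groups that overlap. GTF2E1, the large TFIIE subunit, had 23.5 to 26.3 CPM in CDK8KO and 20.6 to 23.9 CPM in CDK19KO (0.18), and TAF1 44.1 to 55.8 CPM in CDK8KO and 40.2 to 50.2 CPM in CDK19KO (0.16). MED27 was lower by 0.35 on the log2 scale (-0.35 ± 0.0594, adjusted p = 7.73e-06), MED30 by 0.28 (-0.28), GTF2E2 and CCNH, the cyclin of CDK7, by 0.25 each (-0.25), and GTF2B by 0.23 (-0.23 ± 0.0497, adjusted p = 0.000165). CCNH had 32.9, 33.7 and 34.6 CPM in CDK8KO-C1 and 37.6, 35.3 and 34.8 CPM in CDK8KO-C2, against 40.0, 42.1 and 47.5 CPM in CDK19KO-C1 and 38.5, 41.5 and 38.7 CPM in CDK19KO-C2, with no overlap. MED30 had 7.44 to 10.3 CPM in CDK8KO and 9.6 to 12.8 CPM in CDK19KO. For GTF2E2 and GTF2B the values in C1 of CDK19KO, at 78.6 to 83.2 and 35.1 to 38.9 CPM, lay above all CDK8KO libraries, whereas C2 of CDK19KO lay in their range or overlapped it.

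DKO against control gave 12 higher and 17 lower members (all genes: 29.5% higher, 32.1% lower). Of 21 TFII genes, 7 rose and 10 fell, and of 26 core Mediator genes, 5 rose and 7 fell. With ERCC factors 44 members were called, all lower. Leaving out the 18 overlapping members left 9 higher and 10 lower of 29. Replicate b of DKO-C2 stood apart from replicates a and c over all genes. Where DKO-C2 values are listed singly, their order is a, b and c. ERCC2 rose most. It had 94.0, 105 and 104 CPM in DKO-C1 and 97.2, 117 and 96.2 CPM in DKO-C2, against 53.7, 54.8 and 59.0 CPM in control, a 1.83-fold difference (log2 0.87 ± 0.0572, adjusted p = 4.08e-16). All 6 DKO libraries lay above control, and also above the 6 CDK8KO libraries, the highest of which had 81.6 CPM. With ERCC factors ERCC2 stood at -0.02. The other TFIIH genes went both ways. GTF2H5 rose by 0.26 ± 0.0682 (0.17, adjusted p = 0.0705, for DKO-C1 alone) and MNAT1, the assembly factor of the CDK7 kinase, by 0.26 ± 0.0668, while CCNH fell by 0.25 (SE 0.0555).

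GTF2H2 had 11.8, 10.7 and 10.7 CPM in DKO-C1 and 10.8, 11.3 and 10.6 CPM in DKO-C2, against 15.7, 16.9 and 17.1 CPM in control (-0.59 ± 0.0714, adjusted p = 4.2e-09). Its near-identical copies moved the same way, GTF2H2C by -0.38 ± 0.074 and GTF2H2B by -0.41 ± 0.128. GTF2H3, another TFIIH core subunit with little shared sequence, had 92.0 to 103 CPM in DKO-C1 and 81.3 to 92.8 CPM in DKO-C2, against 116 to 119 CPM in control (-0.36 ± 0.0467, adjusted p = 1.7e-08). TAF7, which binds TAF1 in TFIID, had 37.6, 35.0 and 34.9 CPM in DKO-C1 and 35.6, 30.8 and 32.1 CPM in DKO-C2, against 45.1, 47.1 and 50.2 CPM in control (-0.47 ± 0.0494, adjusted p = 1.6e-10). GTF2B, the TFIIB protein that positions the polymerase, had 25.3 to 26.5 CPM in DKO-C1 and 26.4 to 28.4 CPM in DKO-C2, against 31.4 to 34.5 CPM in control (-0.32 ± 0.0602, adjusted p = 1.44e-05). For each of these genes, named for the size of the fall, every DKO library was below every control library.

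Within core Mediator, MED24 fell and MED14, MED15 and MED19 rose in DKO. MED24 had 109, 128 and 124 CPM in DKO-C1 and 112, 137 and 121 CPM in DKO-C2, against 154, 163 and 158 CPM in control (-0.38 ± 0.0479, adjusted p = 1.1e-08). MED14, the backbone, had 123 to 126 CPM in DKO-C1 and 119 to 130 CPM in DKO-C2, against 96.4 to 103 CPM in control (0.33 ± 0.0407, adjusted p = 6.74e-09). MED19, a middle subunit, had 19.8, 18.2 and 17.2 CPM in DKO-C1 and 18.6, 23.2 and 19.8 CPM in DKO-C2, against 16.1, 14.2 and 12.6 CPM in control (0.44 ± 0.0819, adjusted p = 1.47e-05). MED15 had 91.8, 99.0 and 99.9 CPM in DKO-C1 and 89.0, 117 and 101 CPM in DKO-C2, against 74.6, 83.5 and 80.1 CPM in control (0.33 ± 0.0611, adjusted p = 1.7e-05). None of these DKO values overlapped control. Scaled by the spike-in, MED14, MED15 and MED19 were all lower in DKO (-0.57, -0.57 and -0.46). MED1 was not called in DKO (0.02 ± 0.0498).

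MED27 alone had 40.9, 37.9 and 41.0 CPM in DKO-C1 and 38.3, 47.3 and 39.5 CPM in DKO-C2, against 22.0, 21.6 and 24.3 CPM in control. That is a log2 fold change of 0.85 ± 0.0699 (adjusted p = 2.68e-13), and DKO-C1 given JQ1 had 40.7 and 42.4 CPM as well. With the counts of AC026410.3 added, the level was 40.2 ± 1.93 CPM in DKO-C1, 41.9 ± 4.96 CPM in DKO-C2 and 34.3 ± 3.09 CPM in control (SD, n = 3 each). The log2 fold change was then 0.26 ± 0.065 (adjusted p = 0.000702). Summed levels in CDK19KO-C1 were 43.7 ± 4.12 CPM, within the DKO range. Adding processed copies to other members, a step chosen after seeing the data, changed little in DKO: GTF2F2 moved to 0.22 in place of 0.24, CDK7 to 0.06 in place of 0.09, and TAF1 with TAF1L to -0.23 in place of -0.19.

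**Figure D3:**
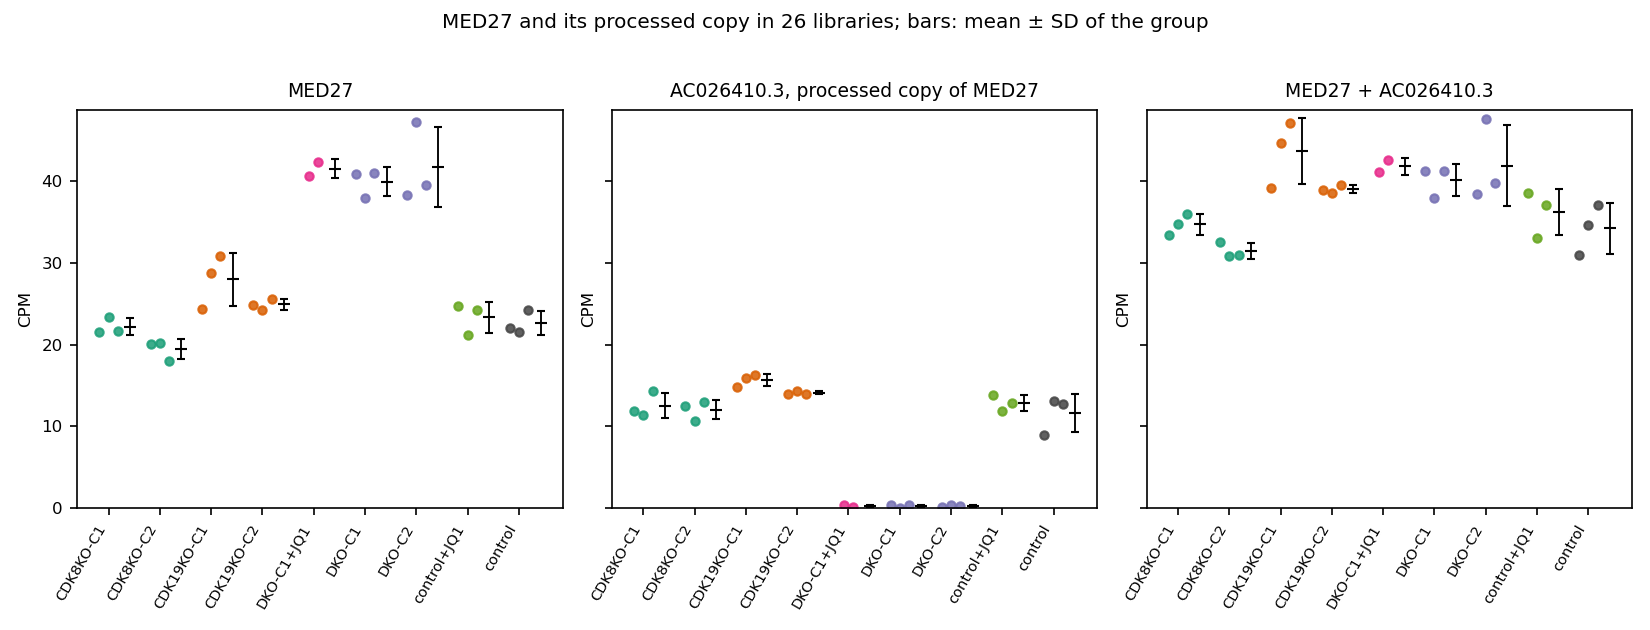
Level in CPM of MED27, of its processed copy AC026410.3 and of their sum in each of the 26 libraries (points), by group, with mean ± SD. The copy is near 0 in the 8 DKO libraries, and the gap of MED27 between DKO and the other groups is mostly gone in the sum.

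The study's design also allows DKO to be set against both single knockouts together: the log2 change in DKO minus the sum of the changes in CDK8KO and CDK19KO. This differed from 0 for 35 of 47 members, against 59.2% of all genes tested, with 19 above and 16 below (all genes: 29.3% above, 29.8% below). With ERCC factors all 47 lay above. Core Mediator had 10 above and 9 below of 26, TFII genes 9 above and 7 below of 21. The contrast crosses both the pseudogene split and the spike-in label. GTF2H5 was at 0.75 ± 0.0909 (adjusted p = 5.99e-09). It had 19.0 to 21.5 CPM in DKO-C1 and 22.5 to 22.7 CPM in DKO-C2, above the 12.4 to 15.7 CPM of CDK8KO, the 14.4 to 16.9 CPM of CDK19KO and the 16.8 to 18.8 CPM of control. MED8 (0.56 ± 0.0803, with 26.7 to 27.6 CPM in DKO-C1 and 22.2 to 24.9 CPM in DKO-C2), TAF1 (0.53 ± 0.0665) and MED30 (0.49 ± 0.109) also lay above the sum. The log2 change of TAF1 was -0.19 in DKO, where DKO-C1 alone was not called (-0.08), beside -0.28 in CDK8KO and -0.44 in CDK19KO, while MED8 and MED30 were not called in DKO (-0.11 and 0.16).

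MED25 lay furthest below the sum (-0.83 ± 0.0788, adjusted p = 1.49e-11). It had 52.8 to 61.1 CPM in DKO-C1 and 59.9 to 75.7 CPM in DKO-C2, against 56.3 to 59.7 CPM in control, whereas both single knockouts were higher. Its antisense partner PTOV1-AS1 is among the genes that nearly vanish in DKO libraries, and the part of that shift in the MED25 value was not tested. MED24 (-0.49 ± 0.0625), TAF4, a TFIID subunit bound by activators (-0.45 ± 0.0609), ERCC3 (-0.37 ± 0.0515) and MED10 of the middle (-0.35 ± 0.0744) were below the sum too. MED10 had 20.8 to 23.3 CPM in DKO-C1 and 21.5 to 23.9 CPM in DKO-C2, beside 23.2 to 26.6 CPM in CDK8KO, 25.7 to 32.3 CPM in CDK19KO and 23.7 to 25.5 CPM in control. For TAF4 the values were 54.6 to 59.3 CPM in DKO-C1 and 54.5 to 57.3 CPM in DKO-C2, beside 65.6 to 71.4 CPM in CDK8KO, 60.3 to 71.3 CPM in CDK19KO and 57.9 to 63.4 CPM in control. TAF4 rose in CDK8KO (0.17) and in CDK19KO (0.16) and fell in DKO (-0.12). Its call in CDK19KO was lost without control replicate 1 (adjusted p = 0.077), and that in DKO on leaving out any of 5 libraries, with adjusted p up to 0.176 without control replicate 2. MED27 was at 0.75 ± 0.0918 alone and at 0.04 (adjusted p = 0.692) with its copy added.

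**Figure D4:**
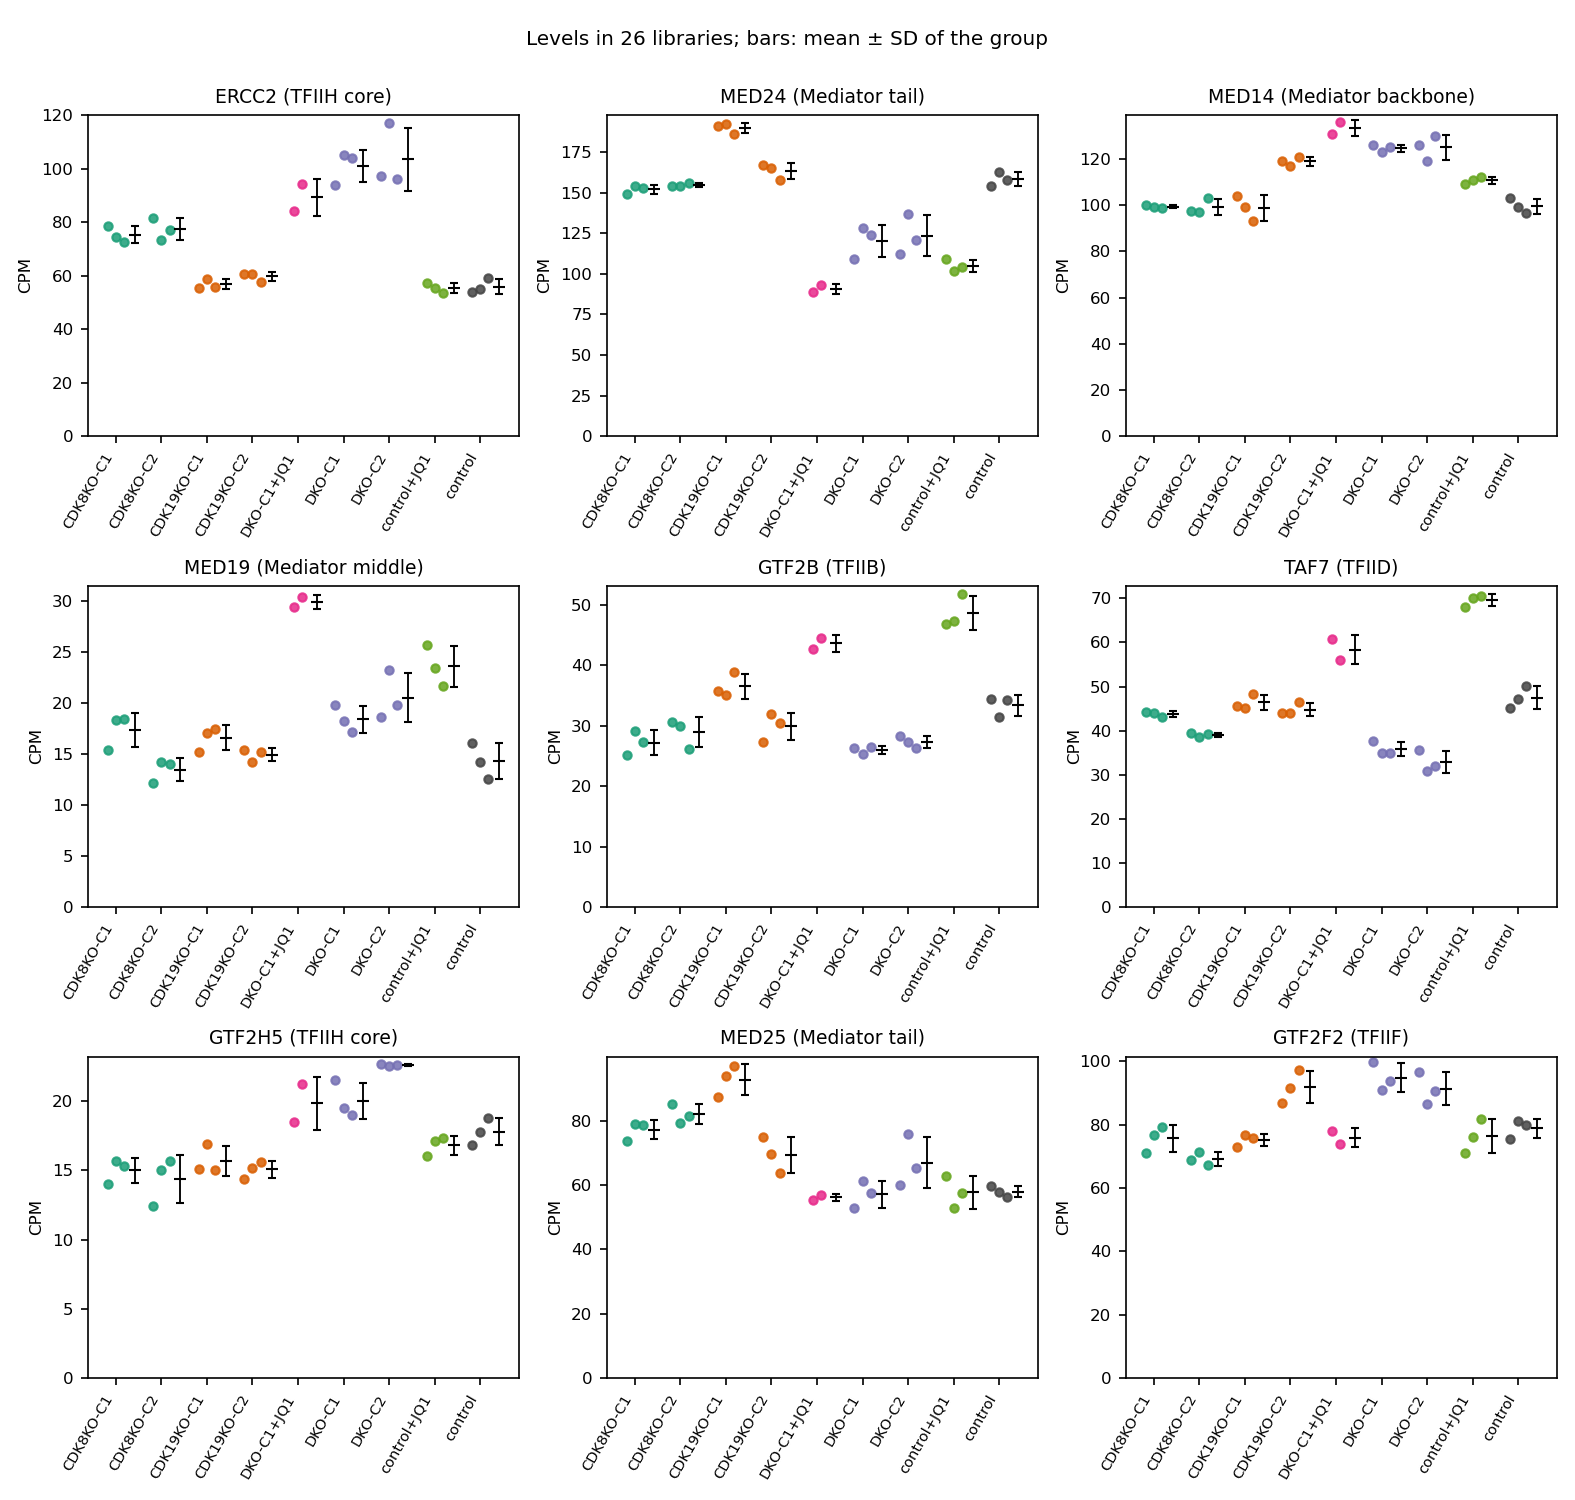
Level in CPM of 9 members in each of the 26 libraries (points), by group, with mean ± SD. ERCC2 is highest in DKO and intermediate in CDK8KO, MED24 is lower in DKO and lower still with JQ1, and GTF2B, TAF7 and MED19 are higher with JQ1 in DKO-C1 and in control cells alike.

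JQ1 was tested in DKO-C1 and in control cells, comparisons that share no library. With JQ1, 14 members rose and 10 fell in DKO-C1 (all genes: 24.9% higher, 25.4% lower), and 14 rose and 11 fell in control cells (27.0% higher, 29.1% lower). In both settings 11 members rose: the head subunits MED20 and MED29, the middle subunits MED19 and MED26, the tail subunit MED23, both TFIIA genes, GTF2B, TAF4, TAF7 and CDK7. Another 6 fell in both, MED6, MED18, MED22, MED24, TAF1 and GTF2H1, and 0 were called in opposite directions. Of all genes tested, 19.7% rose in both settings, 19.9% fell in both and 0.861% were called in opposite directions. Some of these calls rest on single libraries. In DKO-C1, MED20 and MED22 lost theirs without JQ1 replicate 1 (adjusted p = 0.157 and 0.22) and MED6 without JQ1 replicate a (0.134). In control cells, MED29 and MED6 lost theirs without JQ1 replicate 1 (0.0667 and 0.0523), GTF2A2 without any of 4 libraries (up to 0.169) and MED18 without control replicate 1 (0.0626). With ERCC factors the split was 3 higher and 11 lower in DKO-C1, and 0 higher and 21 lower in control. Of the 11 members above, MED20, MED29 and TAF4 then lay below 0 in both settings (-0.03 each in DKO-C1, and -0.09, -0.18 and -0.14 in control), and GTF2A2 (-0.20) and CDK7 (-0.11) in control.

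GTF2B had 42.7 and 44.6 CPM with JQ1 in DKO-C1, against 26.3, 25.3 and 26.5 CPM without, a 1.68-fold rise (0.74 ± 0.0757, adjusted p = 1.6e-10). In control cells it had 46.9, 47.3 and 51.9 CPM with JQ1, against 34.5, 31.4 and 34.3 CPM without (0.54 ± 0.0664, adjusted p = 8.09e-09). JQ1-treated and untreated libraries did not overlap in either setting. TAF7 had 60.7 and 56.1 CPM with JQ1 in DKO-C1, against 37.6, 35.0 and 34.9 CPM without (0.70 ± 0.0626, adjusted p = 6.07e-12). In control cells TAF7 had 68.0, 70.0 and 70.6 CPM with JQ1, against 45.1, 47.1 and 50.2 CPM without (0.55 ± 0.0548, adjusted p = 7.9e-11). Both genes were lower in DKO than in control and higher with JQ1. MED19 had 29.4 and 30.4 CPM with JQ1 in DKO-C1, against 19.8, 18.2 and 17.2 CPM without (0.70 ± 0.0947, adjusted p = 8.3e-08), and 25.7, 23.4 and 21.7 CPM with JQ1 in control cells, against 16.1, 14.2 and 12.6 CPM without (0.72 ± 0.0919, adjusted p = 2.23e-08).

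MED24 was the member that fell most with JQ1. It had 88.5 and 92.8 CPM with JQ1 in DKO-C1, against 109, 128 and 124 CPM without (-0.41 ± 0.0649, adjusted p = 1.5e-06), and 109, 102 and 104 CPM with JQ1 in control cells, against 154, 163 and 158 CPM without (-0.59 ± 0.0567, adjusted p = 2.72e-11). Its tail partner MED23 went the other way, with 63.4 and 64.2 CPM with JQ1 in DKO-C1, against 43.8 to 44.8 CPM without (0.52 ± 0.066, adjusted p = 2.03e-08), and 53.6 to 55.9 CPM with JQ1 in control cells, against 40.4 to 43.7 CPM without (0.39 ± 0.0608, adjusted p = 1.3e-06).

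GTF2H1 of the TFIIH core had 44.5 and 44.4 CPM with JQ1 in DKO-C1, against 57.6, 55.4 and 60.2 CPM without (-0.38 ± 0.0711, adjusted p = 2.57e-05), and 44.2, 48.8 and 50.9 CPM with JQ1 in control cells, against 63.7, 66.3 and 63.7 CPM without (-0.43 ± 0.0625, adjusted p = 3.1e-07). TAF1 had 47.2 and 46.2 CPM with JQ1 in DKO-C1, against 58.2, 58.3 and 55.9 CPM without (-0.30 ± 0.0673), and 43.9, 47.7 and 49.4 CPM with JQ1 in control cells, against 61.4, 62.0 and 59.4 CPM without (-0.37 ± 0.0599). Neither gene overlapped between treated and untreated libraries in either setting. MED18 of the head had 17.2 and 16.7 CPM with JQ1 in DKO-C1, against 20.6, 21.5 and 21.8 CPM without (-0.33 ± 0.0868). In control cells MED18 had 16.5, 16.6 and 18 CPM with JQ1, against 21.7, 18.1 and 20.7 CPM without (-0.25 ± 0.0783), where the nearest libraries almost met. MED22, also of the head, had 25.9, 25.1 and 24.5 CPM with JQ1 in control cells, against 28.3, 33.2 and 32.0 CPM without (-0.31 ± 0.0719), and fell by 0.22 in DKO-C1. MED26 had 10.7 and 11.6 CPM with JQ1 in DKO-C1, against 8.67, 8.91 and 9.50 CPM without (0.31 ± 0.105), and 13.4, 15.5 and 13.6 CPM with JQ1 in control cells, against 9.80, 10.4 and 9.83 CPM without (0.50 ± 0.09). In DKO-C1 its call was lost without JQ1 replicate a (0.26, adjusted p = 0.121). MED11 had 8.97 and 7.37 CPM with JQ1 in DKO-C1, against 5.71, 5.63 and 6.17 CPM without (0.48 ± 0.146), a call lost without JQ1 replicate 1 (adjusted p = 0.137). GTF2H2 had 11.6, 12.9 and 10.8 CPM with JQ1 in control cells, against 15.7, 16.9 and 17.1 CPM without (-0.50 ± 0.0838), and 11.1 and 9.42 CPM with JQ1 in DKO-C1, against 10.7 to 11.8 CPM without, where it was not called.

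The JQ1 responses of DKO-C1 and control cells were then compared directly. Of 47 members, 1 differed, against 8.59% of all genes, and 45 had log2 fold changes of the same sign in both settings, against 79.6% of all genes. GTF2F2, the small subunit of TFIIF, which binds the polymerase, had 78.0 and 73.8 CPM with JQ1 in DKO-C1, against 99.9, 90.9 and 93.9 CPM without (-0.32 ± 0.0641, adjusted p = 5.95e-05). In control cells it had 71.2, 76.1 and 81.9 CPM with JQ1, against 75.5, 81.2 and 80.0 CPM without (-0.05 ± 0.0577, adjusted p = 0.523). The difference between responses was -0.28 ± 0.0861 (adjusted p = 0.0372). It was lost on leaving out any of 8 libraries, with adjusted p up to 0.193 without DKO-C1+JQ1 replicate a, and with no filter on low counts (adjusted p = 0.0553) or with ERCC factors (-0.17, adjusted p = 0.954). For members not called, the interval of the difference shows what the data allow. The 95% interval was -0.28 to 0.24 for MED19, 0 to 0.40 for GTF2B, -0.01 to 0.32 for TAF7, 0.01 to 0.35 for MED24 and 0.12 to 0.64 for GTF2H2, whose adjusted p was 0.0645.

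**Figure D5:**
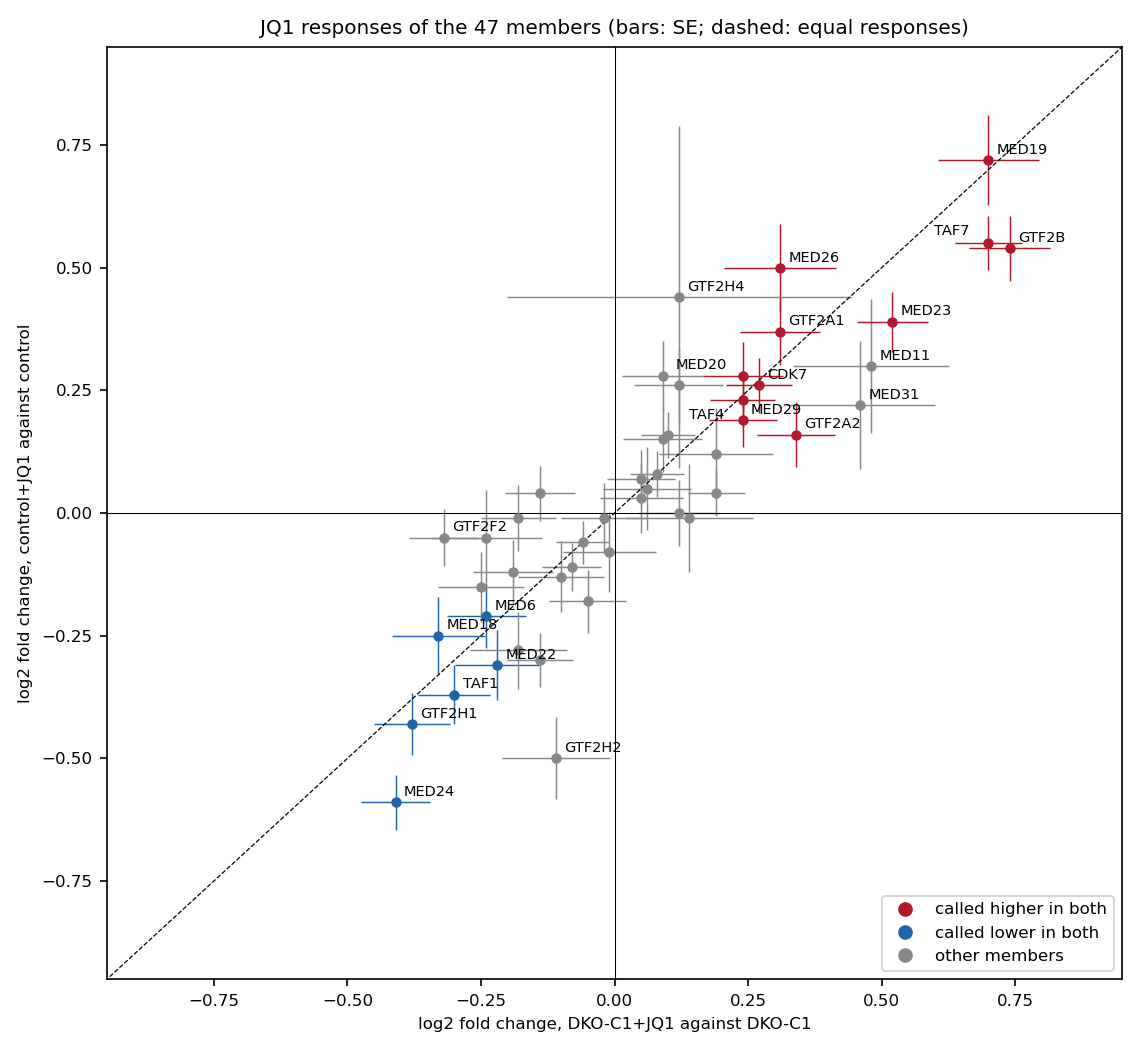
Log2 fold change with JQ1 in DKO-C1 (x axis) and in control cells (y axis) for the 47 members, with SE bars and the line of equal responses. The 11 members called higher in both and the 6 called lower in both lie in opposite corners, with GTF2B, TAF7 and MED19 at the upper right and MED24 at the lower left; GTF2F2 lies left of the line.

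Promoters of the members that moved most with JQ1 are shown because they moved together in both settings. Each stretch holds the 100 bases before 1 start site per gene, 5′ to 3′ on the gene's strand, from RefSeq (build GRCh38.p14). They lie at chr11:57712216-57712315 for MED19, chr1:88891568-88891667 for GTF2B, chr5:141320785-141320884 for TAF7 and chr17:40054409-40054508 for MED24, all on the minus strand. Other annotated starts were not searched. The stretches of MED24 and GTF2B lie inside their GENCODE v29 genes, which reach to chr17:40061215 and chr1:88891944. Capitals mark TATAAA, and GGGCGG or its reverse complement CCGCCC.
MED19: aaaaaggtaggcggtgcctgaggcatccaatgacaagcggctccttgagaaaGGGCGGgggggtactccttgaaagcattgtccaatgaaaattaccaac
GTF2B: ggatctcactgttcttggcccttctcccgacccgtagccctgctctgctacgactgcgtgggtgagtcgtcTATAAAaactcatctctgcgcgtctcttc
TAF7: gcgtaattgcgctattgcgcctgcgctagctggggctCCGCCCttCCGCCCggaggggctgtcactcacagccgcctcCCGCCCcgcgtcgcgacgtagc
MED24: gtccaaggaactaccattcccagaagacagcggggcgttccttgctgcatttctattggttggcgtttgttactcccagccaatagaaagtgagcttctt
GTF2B has a TATAAA, the letters of the TATA box that TBP binds, close to its start. MED19 has 1 GGGCGG, the GC box, TAF7 has 3 as CCGCCC, and MED24 has neither motif in this stretch.

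Motifs were searched on both strands of the window from 250 bases before to 50 bases after the start. For members, 1 RefSeq start per gene was used, and 39 members had a promoter in the table used. GGGCGG was in 22 of 39 members (56.4%), in 56.3% of promoters of protein-coding genes and in 45.0% of all 35116 promoters. Among members that rose with JQ1 in both settings, 9 of 11 had it, and among those that fell in both, 0 of the 4 with a promoter in the table. TATAAA was in 3 of 39 members (7.69%), against 9.47% of protein-coding promoters. CCGGAAGT, the core of ETS-family sites, was in 11 of 39 members (28.2%), against 5.34% of protein-coding promoters, with 2 of the 11 that rose and 2 of the 4 that fell. CACGTG, the E-box of MYC-like factors, was in 4 of 39 members (10.3%), against 8.34%, with 3 of the 11 and 1 of the 4. The protein-coding shares cover 22199 promoters without regard to expression, whereas all members were expressed enough to be tested. A share among expressed genes was not computed, so these differences need not be particular to the members. No searched motif holds another, and these matches describe letters, not sites in use.

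Levels of 5 central members across all 9 groups show how far the core moved. MED14 averaged 134 ± 3.50 CPM in DKO-C1 with JQ1 (SD, n = 2), 125 ± 1.41 in DKO-C1 and 125 ± 5.64 in DKO-C2, 119 ± 2.31 in CDK19KO-C2, 111 ± 1.62 in control with JQ1, and 98.5 ± 5.28 to 99.5 ± 0.829 in CDK19KO-C1 and both CDK8KO sublines, against 99.4 ± 3.07 in control (n = 3 each). The DKO sublines did not differ from each other beyond their SDs, nor did CDK19KO-C1, the CDK8KO sublines and control. The rise of MED14 in CDK19KO (0.12 ± 0.0407) came from C2 alone, with C1 at -0.01, and was lost without control replicate 3 (adjusted p = 0.0889). With JQ1, MED14 was called in control cells (0.16 ± 0.0469) and not in DKO-C1 (0.10 ± 0.0511). MED1 averaged 106 ± 6.35 CPM in CDK19KO-C1 and 136 ± 7.03 in CDK19KO-C2, and 147 ± 3.24 in control. In the other 6 groups its means lay between 149 and 158 CPM, and neighbours in that order did not differ beyond their SDs.

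TBP varied little. Its group means ran from 30.1 ± 0.14 CPM in DKO-C1 with JQ1 and 30.2 ± 0.845 in CDK8KO-C1 to 36.2 ± 0.82 in control with JQ1, against 35.3 ± 1.65 in control. For TBP, DKO against control had a 95% interval of -0.17 to 0.03. GTF2B ranged from 26.1 ± 0.646 CPM in DKO-C1, 27.3 ± 2.05 in CDK8KO-C1 and 27.4 ± 0.994 in DKO-C2 to 43.7 ± 1.30 in DKO-C1 with JQ1 and 48.7 ± 2.79 in control with JQ1, against 33.4 ± 1.72 in control. Its fall in CDK8KO (-0.25 ± 0.0601, adjusted p = 0.000914) was called in both sublines. CDK7 averaged 64.9 ± 3.62 CPM in DKO-C1 with JQ1 and 60.9 ± 1.99 in control with JQ1, against 50.9 ± 2.49 in control. With JQ1 it rose by 0.27 ± 0.062 in DKO-C1 and by 0.26 ± 0.0565 in control cells. CDK7 was called lower in CDK8KO-C1 (-0.20) and in CDK19KO-C2 (-0.24) and not in the other subline of either knockout.

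Head, middle and tail were compared with the TFII factors by their counts and medians. In DKO, 2 of 11 head genes rose and 4 fell, 1 of 9 middle genes rose and 2 fell, 1 of 5 tail genes rose and 1 fell, against 7 and 10 of 21 TFII genes and 29.5% and 32.1% of all genes. Median log2 fold changes were 0.07 for the head, -0.05 for the middle, 0.07 for the tail and -0.07 for the TFII factors, beside -0.02 for all genes. In CDK8KO they were -0.05, 0.02, 0.04 and -0.12, and in CDK19KO 0, -0.01, 0.17 and -0.02. With JQ1 in DKO-C1 the medians were -0.08, 0.12, -0.02 and 0.05, and in control cells -0.05, 0.07, -0.01 and 0.04. The median of core Mediator minus that of the TFII factors was 0.12 in CDK8KO, 0.03 in CDK19KO, 0.09 in DKO, 0.02 for JQ1 in DKO-C1 and -0.01 for JQ1 in control. Beyond the sum of the single knockouts, the medians were 0.04 for core Mediator and 0.09 for the TFII factors. That order reversed when overlapping members were left out. No error was computed for these differences of medians. MED27 to MED30 are placed in the tail by some schemes. That placement gives 5 of 9 tail genes called higher in CDK19KO and 1 lower, and 2 higher and 3 lower in DKO.

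Other parts of the machinery, listed by known role, were tested in the same fit. Of the 11 TFIID subunits outside the 47, 8 rose with JQ1 and 0 fell in DKO-C1, and the same counts held in control cells, against 24.9% and 27.0% of all genes higher in these settings. TAF9, which pairs with TAF6, rose by 0.70 ± 0.056 in DKO-C1 (132 to 137 CPM, against 79.1 to 86.7) and by 1.12 ± 0.05 in control cells (201 to 209 CPM, against 94.0 to 96.1), and the difference of -0.41 was called (adjusted p = 0.000191). TAF9 overlaps other genes over 20.6% of its exons on its own strand. POLR2A, the largest polymerase subunit, rose by 1.01 ± 0.059 with JQ1 in DKO-C1 and by 0.92 ± 0.0538 in control cells. Of 12 polymerase subunits, 4 rose and 0 fell with JQ1 in DKO-C1, and 3 rose and 1 fell in control cells. Of the 6 DSIF and NELF pausing factors, 1 rose and 2 fell in DKO-C1, and 3 rose and 2 fell in control. In DKO against control, 8 of 12 polymerase subunits, 5 of 11 TFIID subunits and 4 of 6 pausing factors were lower, and 1 of each list was higher, against 32.1% of all genes lower and 29.5% higher. The extremes there were POLR2F (7.02), SUPT4H1 of DSIF (-7.18) and TAF10 (-2.62). SUPT4H1 overlaps other genes on its own strand over 70.6% of its exons and TAF10 over 16.7%, and the part of such overlap in these values was not tested.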

How the data were processed

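RNA of 26 HCT116 libraries was measured as paired reads of 100 bases, per the labels' protocols. The submitters' processing notes name STAR 2.5.2, Subread 1.6.3 with featureCounts, and the build hg38. The authors deposited unnormalised counts for genes and ERCC transcripts, whole numbers in every column. The annotation release and strand setting used are not stated. Overlaps computed from GENCODE v29 therefore need not be those of the annotation behind the counts. Of the count columns, 22 were matched to samples by name. The 3 columns of a DKO subline whose number no title carries were taken as DKO-C2 by elimination (replicates a, b and c), and 1 column of DKO-C1+JQ1, whose number no title of that group has, is called replicate a.

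Counts were tested with edgeR 4.0.16 (R 4.3.3) by the quasi-likelihood test in 1 fit of all 26 libraries and 9 groups, with TMM factors (0.956 to 1.02) and filterByExpr (minimum count 10, minimum total 15), which left 17198 of 58039 genes. Calls need a two-sided p under 0.05 after Benjamini-Hochberg adjustment over all tested genes. CPM use TMM library sizes. Fold changes are log2 ± SE, and intervals cover 95%. The fit was tested on simulated data. Alternatives were DESeq2 1.42.0, other scaling (ERCC, size factors), no filter, a replicate block, only the libraries compared, each subline alone, each library left out, and overlapping members left out; adding copies was chosen after seeing the data. Within groups, 25 pairs of libraries differed by 1.41 to 13.2 chi-square per degree of freedom, so none was a duplicate. The 2 largest values were those of DKO-C2 replicate b, 13.2 against a and 10.8 against c, beside 2.28 between a and c. Control+JQ1 replicates 1 and 3 followed at 10.4.

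The members and lists were chosen with earlier results of these data known. Named by rule, with values per library or their range, are up to 5 called members with the largest rise and fall in each comparison, MED14, MED1, TBP, GTF2B and CDK7, overlapping members, and members whose sublines were called in opposite directions. Other names were chosen after their values were seen. Overlaps and shared 50-base runs were computed from GENCODE v29, lengths from its exons and principal transcripts, and promoters are from RefSeq. Processed copies and antisense partners were compared by counts.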

Additional observations from a re-analysis of the deposited data

Results flagged for a closer look

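The response of GTF2F2 to JQ1 differed between DKO-C1 and control cells by a test of the difference itself, at -0.28 on the log2 scale. It was the only member of the 47 for which that difference passed the threshold. It was lost on leaving out any of 8 libraries, with no filter on low counts and with ERCC factors.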

How the results depend on the processing

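Directions and calls depended most on the scaling. With ERCC factors, members called numbered 46 in CDK8KO, 47 in CDK19KO, 44 in DKO, 41 in CDK8KO against CDK19KO, 14 with JQ1 in DKO-C1 and 0 in the test of JQ1 responses against each other. Members called and then of the other sign numbered 7 of 21 in CDK8KO, 12 of 23 in CDK19KO, 12 of 29 in DKO, 17 of 24 in CDK8KO against CDK19KO, 16 of 35 beyond the sum, 9 of 25 for JQ1 in control and 4 of 24 for JQ1 in DKO-C1. The named ones follow. In CDK8KO they included GTF2H4 (-0.49), MED25 (-0.76), ERCC2 (-0.77), MED15 (-0.99) and ERCC3 (-1). In CDK19KO they included MED25 (-1.19), ERCC3 (-1.35), MED15 (-1.42), MED27 (-1.43), MED26 (-1.44) and MED14 (-1.52). In DKO they included ERCC2 (-0.02), MED27 (-0.04), MED19 (-0.46), MED14 and MED15 (-0.57 each). In CDK8KO against CDK19KO they included MED27 (0.09), MED30 (0.15), GTF2E2 and CCNH (0.18 each), GTF2B (0.20), TBP (0.26) and MED14 (0.30), and beyond the sum MED25 (1.15), MED24 (1.49), TAF4 (1.52), ERCC3 (1.6) and MED10 (1.63). For JQ1 in control they included CDK7 (-0.11) and MED14 (-0.21). MED14 also changed sign in CDK19KO subline C1 alone (-0.01). With overlapping members left out, fewer genes were tested, and 13 were called in CDK19KO, 19 in DKO, 23 beyond the sum and 15 for JQ1 in DKO-C1. Beyond the sum, Mediator minus TFII was then 0.14. With all members the order was the reverse, with medians of 0.04 for core Mediator and 0.09 for the TFII factors. With no filter, 0 members differed between JQ1 responses. Leaving out a library in turn gave 13 to 24 calls in CDK19KO, the lowest without control replicate 1, and 0 to 1 for the difference between JQ1 responses. It gave Mediator minus TFII of 0.01 to 0.12 for JQ1 in DKO-C1. A replicate block gave 21 calls in CDK8KO, 24 in CDK19KO, 26 in DKO-C1 alone, 24 in CDK8KO against CDK19KO, 37 beyond the sum and 26 for JQ1 in control. Libraries of the same number did not deviate together more than others did. In 7 groups, r ran from -0.168 to 0.169 in 63 pairs, and from -0.186 to 0.178 in 126 pairs of unlike number. A weak pairing, or one limited to few genes, could go unseen in this check. A replicate block by the numbers in the column names, added after seeing the data, covered all 26 libraries and gave 1 call between the JQ1 responses and 23 for JQ1 in DKO-C1. The cause of these changes was not tested. GTF2H4 had 7 to 29 counts per library, the fewest of the 47.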
